A study of Homo sapiens with 16 samples.

Results

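The early response to the compound 5G6 was read from 4 of the 16 RNA libraries of a study of exosome release: both libraries treated with 5G6 for 4 h, set against both libraries treated with DMSO for 4 h. All 16 libraries came from A549, an established human lung adenocarcinoma line, overexpressing CD63-Nluc, the exosome membrane protein CD63 fused to the Nluc luciferase reporter. The other libraries carried the compounds 6D7 or 7F8 at 4 h, or any of the 4 treatments at 48 h, with 2 biological replicates in each of the 8 groups. The labels print 4 µM for every treatment, also for the solvent DMSO, which served as the control. 5G6, 6D7 and 7F8 are code names, and nothing in the sources used here gives their structures. The libraries show the reporter line only, so each result holds for cells that overexpress CD63-Nluc. The series title ties exosome release to AMPK and to the SREBPs, and the comparison at 4 h addresses which genes differed early.

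As background, the SREBPs are transcription factors held in the endoplasmic reticulum membrane by SCAP and the INSIG proteins while sterols are plentiful. When membrane cholesterol falls, SCAP carries them to the Golgi, where proteases free the part that turns on genes of sterol and fatty acid synthesis. At the lysosome, FLCN with FNIP proteins acts on the Rag GTPases to hold the factors TFEB and TFE3 in the cytoplasm, and these factors drive lysosomal genes once free. ATF4 is the factor of the integrated stress response, which answers to amino acid shortage and to stress in the endoplasmic reticulum.

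Expression was taken as TPM (a transcript's share of the library), which divides reads by transcript length and scales each library to the same sum; mitochondrial genes were dropped and the rest rescaled. The 4 libraries held 7.56 to 8.86 aligned gigabases and 13626 to 14386 genes with TPM of at least 1, and mitochondrial genes took 21.5 to 29.4 percent of the TPM before they were dropped. The A549 epithelial list (12 genes, among them KRT8, KRT18, AKR1B10 and ALDH1A1) summed to 24980 to 27707 TPM. Its members were uneven: EPCAM stood at only 3.63 to 11.4 TPM and CDH1 at 12.1 to 44.4 TPM. The list also holds CD63, which the cells overexpress. The immune list summed to 3.81 to 11.8 TPM with PTPRC, CD3E and LYZ at 0, and of its 13 genes only CD14 reached 1 TPM. The fibroblast list (9 genes) summed to 6.91 to 23.0 TPM, most of it COL1A1 (4.29 to 18.8 TPM), with COL1A2, DCN and LUM at 0. The endothelial list (7 genes) summed to 0.128 to 0.553 TPM with CDH5 at 0. The alveolar type 2 list (9 genes) summed to 11.2 to 20.4 TPM, most of it ABCA3, with SFTPA1 and NKX2-1 at 0. The series description calls the replicates biological and names no separate cultures, so a p-value here reflects variation among these libraries, which may be technical.

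5G6 replicate 2 stood apart from the other 15 in some heat shock and immediate early genes. HSPA6, a strictly stress-induced HSP70, stood at 0.818 and 334 TPM with 5G6 and 1.08 and 0.942 TPM with DMSO, and in the other 15 libraries it did not exceed 7.85 TPM. EGR1, an early growth response factor, stood at 2.64 and 111 TPM with 5G6 and 3.93 and 6.04 TPM with DMSO, and FOSB, a partner of JUN, at 0.638 and 25.4 TPM with 5G6 and 0.728 and 0.831 TPM with DMSO. The highest of the other 15 libraries reached 33 TPM for EGR1 and 14.1 TPM for FOSB, both below 5G6 replicate 2. For HSPA6, EGR1 and FOSB that library was 6D7 replicate 1 of 48 h. Its ATF3 was also high, at 100.3 TPM, beside 120.6 TPM in 5G6 replicate 2. DNAJB1, an HSP40 co-chaperone, stood at 186 and 370.5 TPM with 5G6 and 201 and 125 TPM with DMSO, again highest in 5G6 replicate 2. HSPA1A stood at 439 and 1054 TPM with 5G6 and 567 and 282 TPM with DMSO, and a 7F8 library of 48 h reached 1096 TPM, so this gene was not particular to that library. Results are therefore given per library, and for gene groups also for each 5G6 library against the mean of the DMSO libraries. A second split ran along the replicate numbers: the 37 interferon-stimulated genes summed to 3623 and 1320.1 TPM in 5G6 replicates 1 and 2, and to 3535 and 1517 TPM in DMSO replicates 1 and 2. Their part in the differences between 5G6 and DMSO was not tested.

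**Figure D1:**
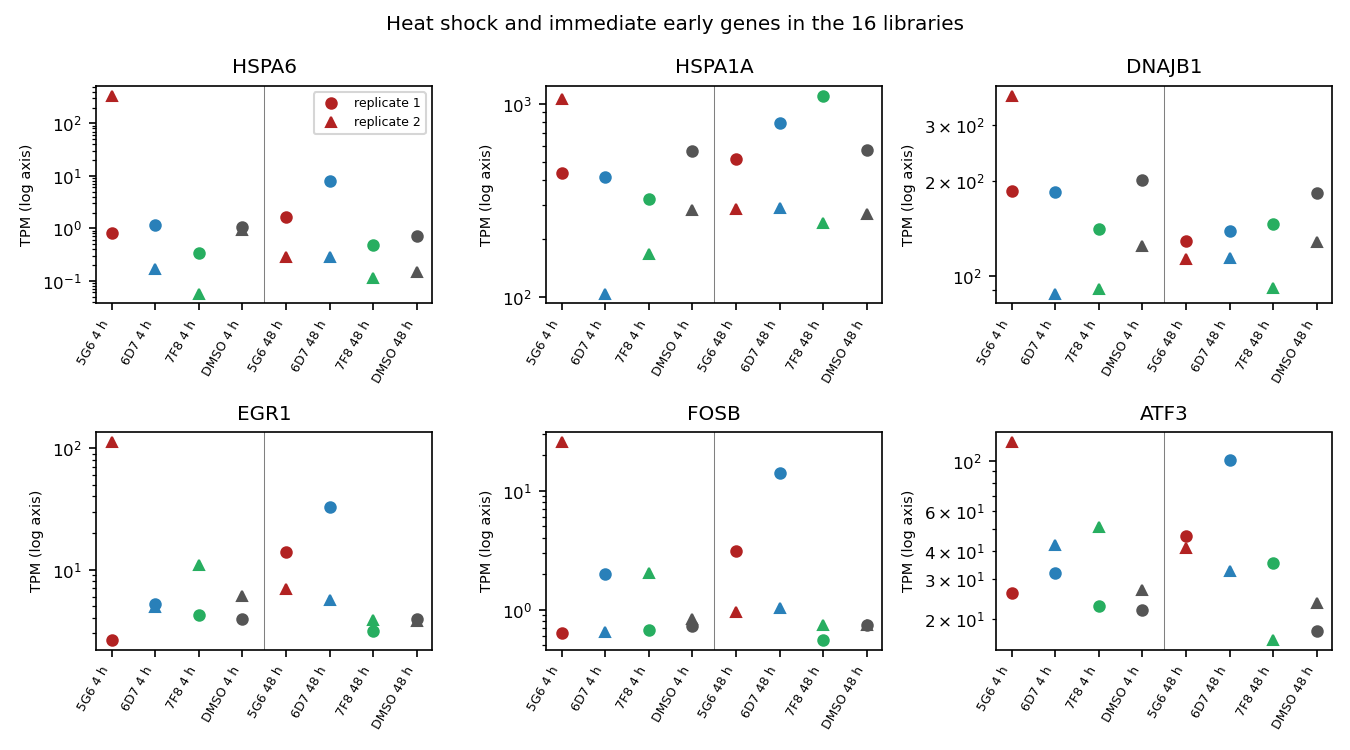
TPM (log axis) of 6 heat shock and immediate early genes in each of the 16 libraries, by treatment and time, with circles for replicate 1 and triangles for replicate 2. HSPA6, EGR1, FOSB, DNAJB1 and ATF3 were highest in 5G6 replicate 2 at 4 h (HSPA6 at 334 TPM), whereas HSPA1A was not.

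Across the transcriptome, no single gene separated from DMSO after adjustment, although sterol, lysosomal and ATF4 genes stood at the top of the order. Of 15958 genes tested with limma on log2(TPM + 1), 0 passed a Benjamini-Hochberg (BH) adjusted p below 0.05, while the unadjusted p was below 0.05 for 471 higher genes (2.95 percent) and 47 lower genes (0.295 percent). Both 5G6 libraries lay above both DMSO libraries for 3611 genes (22.6 percent) and below both for 1260 genes (7.9 percent). Leaving out 5G6 replicate 2 gave 1 call, ZNF32, which was listed at 0 in the remaining 5G6 library, and leaving out DMSO replicate 2 gave 0 calls and 277 genes with an unadjusted p below 0.05. With a fold of at least 2 added, 211 genes (1.32 percent) were higher and 37 (0.232 percent) lower. The median log2 fold change over all genes was 0.11, and -0.01 after median-of-ratios scaling, so group medians are given on both scales. Of all genes, 3 shared the smallest adjusted p, 0.0629 in limma with BH adjustment, and under other scalings 1 to 3 of them passed the threshold. FLCN, the Rag regulator named above (GRCh38 chr17:17206946-17237191), stood at 62.9 and 72.9 TPM with 5G6 and 21.6 and 20.9 TPM with DMSO, a log2 fold change of 1.63 ± 0.22 (SE). PIP4P1, a phosphatidylinositol 4,5-bisphosphate phosphatase of the lysosomal membrane (chr14:20457853-20461612), stood at 112 and 104 TPM with 5G6 and 49.2 and 47.6 TPM with DMSO, 1.14 ± 0.15 (SE). UAP1L1, an enzyme related to the UDP-N-acetylglucosamine pyrophosphorylase UAP1 (chr9:137077475-137084538), stood at 43.9 and 36.6 TPM with 5G6 and 7.25 and 6.33 TPM with DMSO, 2.40 ± 0.33 (SE). In each of these genes the replicates lay close together and the groups did not overlap. With median-of-ratios scaling FLCN and UAP1L1 had adjusted p of 0.0351 (limma, BH), and PIP4P1 0.338.

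**Figure D2:**
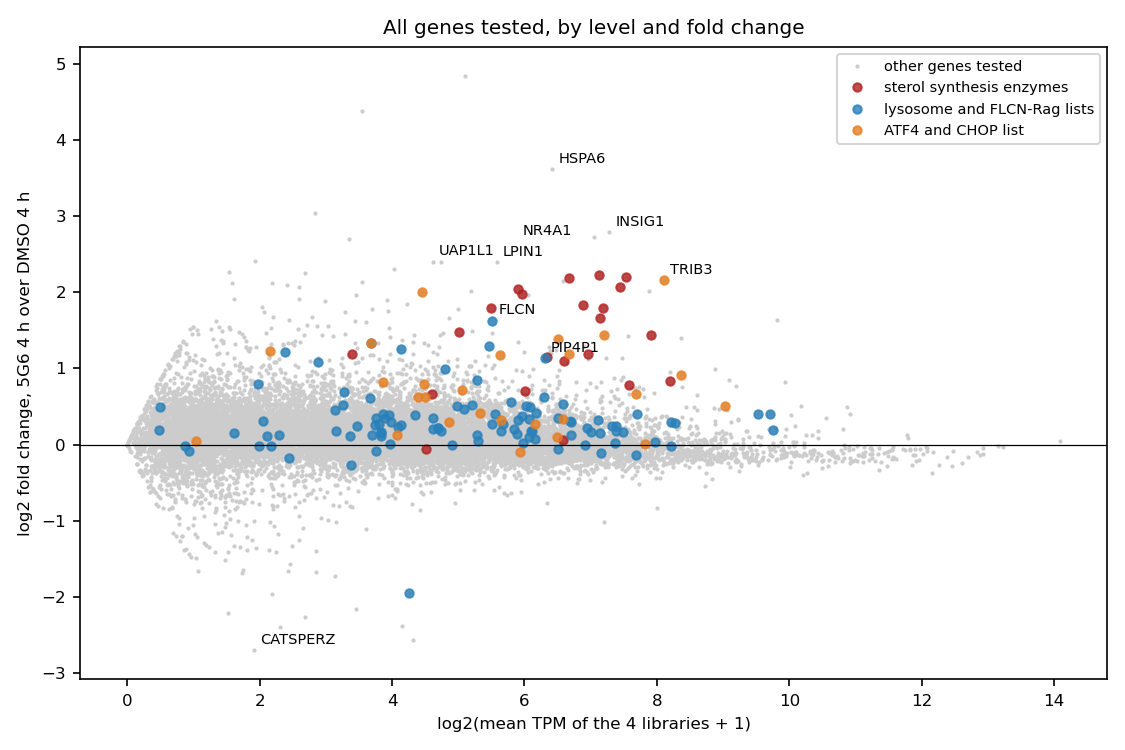
Log2 fold change of 5G6 over DMSO at 4 h against the log2 mean level for the 15958 genes tested, with sterol synthesis, lysosome with FLCN-Rag, and ATF4 lists coloured. Most sterol synthesis enzymes lie between 1 and 2.3 on the log2 scale and INSIG1 at 2.79; FLCN and PIP4P1 lie at 1.63 and 1.14, and HSPA6, at 3.62, rests on 1 library.

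The sterol pathway was the gene group with the highest medians, and its enzymes were higher from nearly the first step to the last. Of the 10 mevalonate pathway enzymes, 8 were higher in both 5G6 libraries than in both DMSO libraries, against 22.6 percent of all genes, and 7 of them at least 2-fold, against 1.32 percent. Their median log2 fold change was 1.61 (1.48 after median-of-ratios scaling). HMGCS1, which makes HMG-CoA, stood at 306 and 298 TPM with 5G6 and 54.8 and 76.5 TPM with DMSO (log2 fold change 2.20 ± 0.59 (SE)). MVD, which makes isopentenyl diphosphate, stood at 219 and 115 TPM with 5G6 and 28.7 and 40.7 TPM with DMSO (2.18 ± 0.51 (SE)). MVK, the mevalonate kinase, stood at 90.6 and 49.3 TPM with 5G6 and 18.1 and 19.1 TPM with DMSO (1.79 ± 0.42 (SE)), and IDI1, the isopentenyl diphosphate isomerase, at 288 and 164 TPM with 5G6 and 57.1 and 67.6 TPM with DMSO. In all 4 enzymes the groups lay far apart, and in MVD, MVK and IDI1 replicate 1 of 5G6 was well above replicate 2. Their limma BH-adjusted p-values were 0.726 for HMGCS1, 0.439 for MVD, 0.439 for MVK and 0.862 for IDI1. The exceptions were PMVK, phosphomevalonate kinase, at 106 and 88.4 TPM with 5G6 and 86.1 and 100.1 TPM with DMSO, and GGPS1, which makes geranylgeranyl diphosphate for protein prenylation, at 21.2 and 21.5 TPM with 5G6 and 21.2 and 23.1 TPM with DMSO. In both of these the groups overlapped.

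After squalene, 11 of 12 tested enzymes were higher in both 5G6 libraries, against 22.6 percent of all genes. At least 2-fold higher were 9, against 1.32 percent, and the list had a median of 1.34 (1.21 after median-of-ratios scaling). MSMO1, the sterol C4-methyl oxidase, stood at 267 and 193 TPM with 5G6 and 41.4 and 55.1 TPM with DMSO (log2 fold change 2.22 ± 0.49 (SE)). LSS, which closes the ring to lanosterol, stood at 123 and 70.1 TPM with 5G6 and 22.2 and 21.2 TPM with DMSO (2.05 ± 0.43 (SE)). CYP51A1, the lanosterol demethylase, stood at 211 and 156 TPM with 5G6 and 49.1 and 51.6 TPM with DMSO (1.83 ± 0.39 (SE)). The DMSO replicates of LSS and CYP51A1 were nearly equal, and the 5G6 replicates differed more from each other. DHCR7, the last reductase of the pathway, stood at 354 and 203 TPM with 5G6 and 85.2 and 46.9 TPM with DMSO (2.07 ± 0.58 (SE)), and SQLE, the squalene epoxidase, at 242 and 186 TPM with 5G6 and 61.7 and 71.6 TPM with DMSO (1.66 ± 0.47 (SE)). The adjusted p in limma with BH was 0.288 for LSS, 0.29 for CYP51A1, 0.351 for MSMO1, 0.796 for DHCR7 and 0.849 for SQLE. The overlapping member was TM7SF2, a sterol C14 reductase, at 44.5 and 15.6 TPM with 5G6 and 20.1 and 13.1 TPM with DMSO. Against the DMSO mean, the median of the mevalonate list was 1.86 in 5G6 replicate 1 and 1.24 in 5G6 replicate 2, and that of the squalene list 1.61 in 5G6 replicate 1 and 1.12 in 5G6 replicate 2. Both libraries thus showed the pathway above DMSO, including replicate 1, in which the heat shock genes were not high. SNORD159, a small nucleolar RNA at 18.1 and 15.2 TPM with 5G6 and 1.4 and 2.06 TPM with DMSO, lies inside LSS on the same strand (chr21:46194090-46194159 within 46188446-46228824), so reads of both cannot be told apart.

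In the SREBP machinery, the sensor INSIG1 stood out and most of the other parts lay close to DMSO. INSIG1, which retains the SCAP-SREBP complex, stood at 296 and 241 TPM with 5G6 and 29.2 and 49.1 TPM with DMSO, a log2 fold change of 2.79 ± 0.57 (SE) with an adjusted p of 0.267 (limma, BH). SREBF2, which encodes SREBP2, stood at 95.8 and 76.7 TPM with 5G6 and 61.3 and 39.7 TPM with DMSO (0.78 ± 0.37 (SE)), and the groups did not overlap. SREBF1, which encodes SREBP1, stood at 186 and 143 TPM with 5G6 and 156 and 123 TPM with DMSO (0.23 ± 0.46 (SE)), with overlapping groups, though 5G6 was above DMSO at each replicate number. SCAP, the escort protein, stood at 31 and 32.1 TPM with 5G6 and 29.1 and 28.3 TPM with DMSO, and the sensor INSIG2 at 9.44 and 15.9 TPM with 5G6 and 9.87 and 10.7 TPM with DMSO. The list of 11 genes had a median of 0.18 (0.04 after median-of-ratios scaling). In it, 5 members were higher in both 5G6 libraries, 1 of them at least 2-fold, against 22.6 and 1.32 percent of all genes. Genes of cholesterol uptake and lysosomal exit had a median of 0.52 (0.39), with 10 of 15 higher in both. NPC1, which exports cholesterol from the lysosome, stood at 71.1 and 60.4 TPM with 5G6 and 25.7 and 20.6 TPM with DMSO (1.47 ± 0.35 (SE)). STARD4, a cytosolic sterol carrier, stood at 36.9 and 35 TPM with 5G6 and 13.1 and 15.3 TPM with DMSO (1.28 ± 0.32 (SE)), and both genes showed close replicates and no overlap. MYLIP, the ubiquitin ligase that degrades lipoprotein receptors, lay on the other side at 1.77 and 3.12 TPM with 5G6 and 6.86 and 3.46 TPM with DMSO (-0.81 ± 0.53 (SE), BH-adjusted p in limma = 1.00). MYLIP is a target of LXR, the factor that answers to oxidised sterols, and the 10 LXR and efflux genes had a median of -0.01 (-0.15) with 3 members higher in both 5G6 libraries and 2 lower.

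Fatty acid genes lay above DMSO less uniformly than sterol genes. Of 24 members, 17 were higher in both 5G6 libraries and 7 at least 2-fold, against 22.6 and 1.32 percent of all genes; the median was 0.67 (0.53 after median-of-ratios scaling), with 0.84 in 5G6 replicate 1 and 0.61 in 5G6 replicate 2. FASN, the fatty acid synthase, stood at 436 and 319 TPM with 5G6 and 109 and 77.4 TPM with DMSO (log2 fold change 2.01 ± 0.48 (SE)). ELOVL6, which extends palmitate, stood at 42 and 36 TPM with 5G6 and 11.9 and 15.3 TPM with DMSO (1.46 ± 0.29 (SE)), and PNPLA3, a lipase of lipid droplets, at 5.48 and 5.24 TPM with 5G6 and 0.736 and 0.901 TPM with DMSO (1.81 ± 0.40 (SE)). ACSS2, the acetyl-CoA synthetase, stood at 89.5 and 29.4 TPM with 5G6 and 12.5 and 11.5 TPM with DMSO (2.02 ± 0.55 (SE)). The groups did not overlap in any of them, and in ACSS2 the 5G6 replicates differed more on the log scale than replicate 2 did from DMSO. SCD, which makes monounsaturated fatty acids, stood at 1737 and 995 TPM with 5G6 and 524 and 342 TPM with DMSO (1.63 ± 0.72 (SE)). ACACA, which makes malonyl-CoA, stood at 49.4 and 52.6 TPM with 5G6 and 31.5 and 20.9 TPM with DMSO, and the desaturase FADS1 at 592 and 356 TPM with 5G6 and 233 and 129 TPM with DMSO. Limma gave BH-adjusted p-values of 0.267 for ELOVL6, 0.346 for PNPLA3, 0.439 for FASN, 0.752 for ACSS2 and 1.00 for SCD. LPIN1, a phosphatidate phosphatase of triglyceride synthesis that SREBP1 is known to drive, stood at 72.2 and 86.4 TPM with 5G6 and 12.6 and 16 TPM with DMSO, 2.39 ± 0.36 (SE), with an adjusted p of 0.112 in the same fit. PLIN2, the coat protein of lipid droplets, stood at 131 and 101 TPM with 5G6 and 47.2 and 49.5 TPM with DMSO (1.23 ± 0.53 (SE)). The whole lipin and droplet list, LPIN1 and PLIN2 included, had a median of 0.20 (0.07) over 24 genes, with 8 higher in both 5G6 libraries and 2 lower, against 22.6 and 7.9 percent of all genes. CIDEB, a lipid transfer protein of that list, was listed at 0 in both DMSO libraries and at 1.44 and 2.5 TPM with 5G6.

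**Figure D3:**
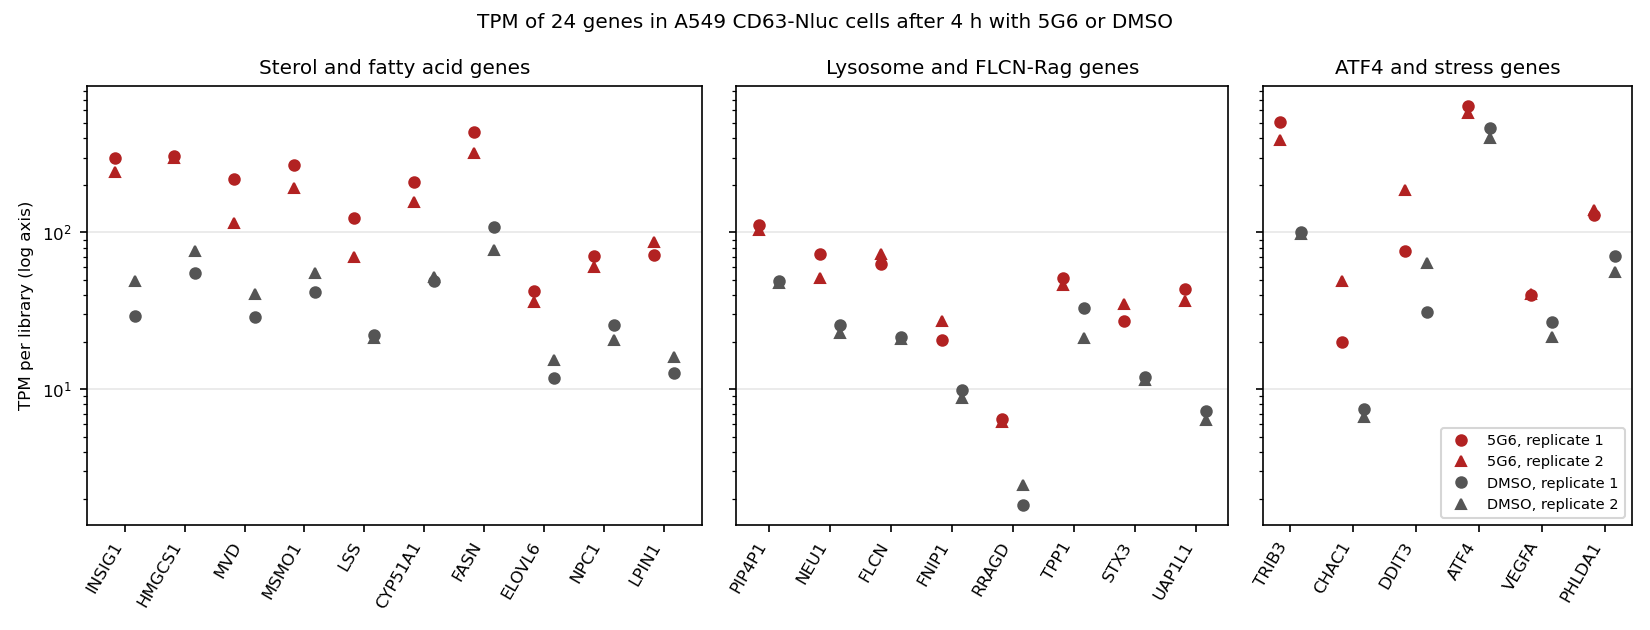
TPM per library (log axis) of 24 genes in 3 panels, sterol and fatty acid genes, lysosome and FLCN-Rag genes, and ATF4 and stress genes, with 5G6 in red left of DMSO in grey and circles and triangles for replicates 1 and 2. The 24 genes were picked, and in each both 5G6 points lie above both DMSO points, as in INSIG1 (296 and 241 TPM with 5G6 and 29.2 and 49.1 TPM with DMSO). The same held for 22.6 percent of all genes, and overlapping members such as PMVK, TFEB and ATF3 are not drawn here.

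The FLCN-Rag module and lysosomal genes formed a further group above DMSO. FNIP1, the partner of FLCN, stood at 20.6 and 27 TPM with 5G6 and 9.87 and 8.75 TPM with DMSO (log2 fold change 1.26 ± 0.25 (SE)). RRAGD, a Rag GTPase, stood at 6.43 and 6.17 TPM with 5G6 and 1.83 and 2.47 TPM with DMSO (1.22 ± 0.25 (SE)), and its relative RRAGC at 33.9 and 38.2 TPM with 5G6 and 15.1 and 20.6 TPM with DMSO (0.99 ± 0.22 (SE)). In these genes both replicates of each group lay close together, and limma gave BH-adjusted p-values of 0.267 for FNIP1, 0.267 for RRAGD and 0.359 for RRAGC. The partners RRAGA and RRAGB did not share the pattern, at 159.5 and 135 TPM with 5G6 and 131 and 133 TPM with DMSO for RRAGA and 12.2 and 12.1 TPM with 5G6 and 12.7 and 13.1 TPM with DMSO for RRAGB. The factors that act on lysosomal genes were near DMSO in their own RNA, TFEB at 4.68 and 3.43 TPM with 5G6 and 5.9 and 3.68 TPM with DMSO (-0.18 ± 0.44 (SE)) and TFE3 at 52.5 and 73.9 TPM with 5G6 and 60 and 62.7 TPM with DMSO. In the FLCN, Rag and TFE list, 11 of 27 genes were higher in both 5G6 libraries and 2 lower. Over all genes these shares were 22.6 and 7.9 percent. At least 2-fold higher were 4, against 1.32 percent of all genes. The list median was 0.24 (0.11 after median-of-ratios scaling), with 0.25 in 5G6 replicate 1 and 0.25 in 5G6 replicate 2. SESN2, an amino acid sensor of that list, stood at 6.66 and 30.4 TPM with 5G6 and 5.56 and 4.74 TPM with DMSO. Both 5G6 libraries lay above both DMSO libraries, but only 5G6 replicate 2 by a wide margin. With 6D7 at 4 h SESN2 stood at 8.02 and 19.6 TPM, so a high value was not particular to that library.

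Among lysosomal hydrolases and membrane glycoproteins, 30 of 53 were higher in both 5G6 libraries and 0 lower, against 22.6 and 7.9 percent of all genes. At least 2-fold higher were 2 of 53, against 1.32 percent of all genes. The median was 0.23 (0.12 after median-of-ratios scaling), with 0.37 in 5G6 replicate 1 and 0.16 in 5G6 replicate 2, so the group's distance from DMSO was small beside that of the sterol genes. NEU1, the lysosomal sialidase, stood at 72.4 and 51.1 TPM with 5G6 and 25.7 and 22.9 TPM with DMSO (log2 fold change 1.29 ± 0.24 (SE), BH-adjusted p in limma = 0.251). TPP1, a tripeptidyl peptidase, stood at 51.5 and 45.9 TPM with 5G6 and 33 and 21.2 TPM with DMSO (0.85 ± 0.31 (SE)), and CTSA, which protects NEU1, at 87.6 and 70.5 TPM with 5G6 and 56.6 and 53.9 TPM with DMSO (0.50 ± 0.21 (SE)). MCOLN1, the lysosomal calcium channel, stood at 16.4 and 14.9 TPM with 5G6 and 11.6 and 11.7 TPM with DMSO, and LAMP1, a major membrane glycoprotein, at 119 and 109 TPM with 5G6 and 94.7 and 90.6 TPM with DMSO. Each of these had both 5G6 libraries above both DMSO libraries. The proton pump followed with 12 of 22 subunits higher in both, 0 at least 2-fold and 0 lower, and a median of 0.29 (0.16). ATP6V1C1, a subunit of its cytosolic sector, stood at 33.2 and 39 TPM with 5G6 and 24 and 26.2 TPM with DMSO (0.50 ± 0.21 (SE)), and ATP6V1H at 37.1 and 39.6 TPM with 5G6 and 24.2 and 31.3 TPM with DMSO. ATP6V1C2 stood at 1.74 and 3.25 TPM with 5G6 and 65.7 and 1.6 TPM with DMSO, and the high value was in 1 DMSO library only. Autophagy genes had a median of 0.08 (-0.04), a direction that turned with the scaling, with 13 of 41 higher in both 5G6 libraries and 1 lower. WIPI1, an autophagy protein that binds phosphoinositides, was the member furthest above DMSO at 48.7 and 27.9 TPM with 5G6 and 19.5 and 14.4 TPM with DMSO (1.09 ± 0.40 (SE)).

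Other lysosomal genes appeared among the 25 smallest unadjusted p-values; these were picked out after their values were seen. SLC17A5, the sialic acid exporter of the lysosome, stood at 28.6 and 26.7 TPM with 5G6 and 9.51 and 11.1 TPM with DMSO (log2 fold change 1.34 ± 0.26 (SE)). PQLC2, its exporter of cationic amino acids, stood at 27.4 and 28.2 TPM with 5G6 and 13.8 and 14.6 TPM with DMSO (0.92 ± 0.18 (SE)). PI4K2A, a phosphatidylinositol 4-kinase of endosomes, stood at 27.3 and 37.6 TPM with 5G6 and 15 and 16.6 TPM with DMSO (0.98 ± 0.20 (SE)). SLC2A6, a glucose transporter relative placed on lysosomes, stood at 104 and 66.6 TPM with 5G6 and 32.2 and 31.8 TPM with DMSO (1.35 ± 0.23 (SE)). All 4 had well separated groups, and their limma BH-adjusted p ranged from 0.197 for SLC2A6 to 0.267 for PI4K2A. STX3, a syntaxin of apical membrane fusion, stood at 27.1 and 35.2 TPM with 5G6 and 11.9 and 11.5 TPM with DMSO (1.33 ± 0.23 (SE), BH-adjusted p in limma = 0.24), while the list of 33 SNARE genes, STX3 included, had a median of 0.11 (-0.02), of either sign with the scaling.

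ATF4 target genes were higher as well, with a larger share of the distance carried by replicate 2. Of 26 members, 16 were higher in both 5G6 libraries and 0 lower, against 22.6 and 7.9 percent of all genes. At least 2-fold higher were 6, against 1.32 percent of all genes. The median was 0.65 (0.52 after median-of-ratios scaling), with 0.32 in 5G6 replicate 1 and 0.67 in 5G6 replicate 2. TRIB3, a pseudokinase that restrains AKT and ATF4, stood at 508 and 391 TPM with 5G6 and 101 and 98.1 TPM with DMSO (log2 fold change 2.15 ± 0.41 (SE), BH-adjusted p in limma = 0.26). CHAC1, which degrades glutathione, stood at 20 and 49.1 TPM with 5G6 and 7.46 and 6.69 TPM with DMSO (2.01 ± 0.46 (SE)), and DDIT3, which encodes CHOP, at 75.9 and 187 TPM with 5G6 and 31.3 and 64 TPM with DMSO (1.39 ± 0.75 (SE)). TRIB3 was higher in replicate 1 than in replicate 2 of 5G6, whereas CHAC1 and DDIT3 were highest in replicate 2. PPP1R15A, which dephosphorylates eIF2 alpha, stood at 119 and 321 TPM with 5G6 and 57.6 and 88 TPM with DMSO, and ATF3, which represses and activates stress genes, at 25.9 and 121 TPM with 5G6 and 21.9 and 26.7 TPM with DMSO. In ATF3 only replicate 2 of 5G6 stood above both DMSO libraries, though 5G6 was above DMSO at each replicate number. ATF4 RNA itself stood at 639.8 and 580.2 TPM with 5G6 and 462 and 399 TPM with DMSO (0.50 ± 0.19 (SE)), without overlap. GDF15, a secreted stress cytokine, stood at 235 and 270.02 TPM with 5G6 and 156 and 160.2 TPM with DMSO (0.67 ± 0.24 (SE)), and the growth factor VEGFA at 40.1 and 40.2 TPM with 5G6 and 26.9 and 21.6 TPM with DMSO (0.71 ± 0.22 (SE)). The biosynthetic targets of ATF4 lay nearer DMSO: serine, asparagine and one-carbon genes had a median of 0.27 (0.14) with 12 of 25 higher in both 5G6 libraries, and aminoacyl-tRNA synthetases 0.07 (-0.06) with 6 of 37 higher and 7 lower, the synthetases being of either sign with the scaling. PSPH, the last enzyme of serine synthesis, stood at 51.3 and 42.8 TPM with 5G6 and 31 and 28.4 TPM with DMSO (0.64 ± 0.34 (SE)). Endoplasmic reticulum chaperones had a median of 0.19 (0.05), with 10 of 28 higher in both.

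The promoters of some of these genes hold the short motifs known for the factors above. They are shown for a few genes picked from the SREBP, FLCN-Rag and lysosomal, and ATF4 lists. In each picked gene both 5G6 libraries lay above both DMSO libraries. Other genes of these lists, such as FLCN and TRIB3, also met this condition and are not shown. Each stretch runs 5′ to 3′ on the gene's strand from base -220 to base -41 before the start given in the RefSeq promoter table (GRCh38.p14), and capitals mark the motifs searched on both strands: CACGTG, an E-box that TFEB and its relatives bind; TCACNCCAC, a sterol regulatory element; TGATGNAA, the composite site of ATF4 and C/EBP; and CCAAT, the NF-Y box. The stretches are at chr7:155297658-155297837 (plus strand) for INSIG1, chr22:41832885-41833064 (plus) for SREBF2, chr5:131797058-131797237 (minus) for FNIP1, chr1:38859813-38859992 (minus) for RRAGC, chr6:31862862-31863041 (minus) for NEU1 and chr15:40953251-40953430 (plus) for CHAC1.
INSIG1: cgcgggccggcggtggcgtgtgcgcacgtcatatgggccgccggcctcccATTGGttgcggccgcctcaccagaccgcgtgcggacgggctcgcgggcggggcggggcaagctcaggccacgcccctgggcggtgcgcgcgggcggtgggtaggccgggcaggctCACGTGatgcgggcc
SREBF2: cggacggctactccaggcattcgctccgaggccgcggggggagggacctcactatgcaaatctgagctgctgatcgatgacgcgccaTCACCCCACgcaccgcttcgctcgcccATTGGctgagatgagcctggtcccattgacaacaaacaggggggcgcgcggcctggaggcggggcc
FNIP1: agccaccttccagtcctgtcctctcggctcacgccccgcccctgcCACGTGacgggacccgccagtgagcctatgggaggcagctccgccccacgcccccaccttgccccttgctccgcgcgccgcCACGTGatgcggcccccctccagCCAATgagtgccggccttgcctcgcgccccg
RRAGC: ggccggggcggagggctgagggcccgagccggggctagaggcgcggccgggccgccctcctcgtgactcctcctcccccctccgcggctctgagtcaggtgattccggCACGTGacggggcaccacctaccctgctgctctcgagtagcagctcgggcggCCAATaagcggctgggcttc
NEU1: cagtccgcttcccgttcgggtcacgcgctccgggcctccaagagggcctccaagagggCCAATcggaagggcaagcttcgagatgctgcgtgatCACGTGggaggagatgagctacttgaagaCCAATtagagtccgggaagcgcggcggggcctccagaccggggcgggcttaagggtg
CHAC1: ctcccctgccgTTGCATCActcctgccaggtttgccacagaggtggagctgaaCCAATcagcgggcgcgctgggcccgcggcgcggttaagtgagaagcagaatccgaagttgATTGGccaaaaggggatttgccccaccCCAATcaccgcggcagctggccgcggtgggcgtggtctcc

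FNIP1 holds CACGTG at -175 and -94, RRAGC at -112, NEU1 at -126 and INSIG1 at -55, counted at the first base of the match. SREBF2 holds a match to TCACNCCAC at -133, and CHAC1 holds the reverse complement of the ATF4 site at -209. CCAAT stands on one strand or the other in all 6 picked stretches. Over its whole list, TCACNCCAC was in 1 of 9 promoters of the SREBP factors and processing genes. Over the 250 bases before a start, and counting a gene once, CACGTG was present in 11 of 33 lysosomal hydrolase and glycoprotein genes with a promoter in the table (33.3 percent) and in 6 of 23 FLCN, Rag and TFE genes (26.1 percent), beside 11.2 percent of the 11264 tested genes in the table. The ATF4 motif was in 4 of 22 ATF4 and CHOP genes (18.2 percent), beside 2.39 percent of tested genes. CCAAT was in 15 of 17 genes of the combined sterol synthesis lists (88.2 percent), beside 40.5 percent, and TCACNCCAC in 0 of 17, beside 1.2 percent. Other lists also had high shares. CCAAT was in 91.7 percent of endoplasmic reticulum chaperone genes and 81.6 percent of mitotic genes. CACGTG was in 31.6 percent of serine, asparagine and one-carbon genes, and the ATF4 motif in 10.7 percent of interferon-stimulated genes. High shares were thus not particular to the lists furthest above DMSO. The table had no entry for PIP4P1, UAP1L1, RRAGD and FASN. A match describes the letters of the window and is not a bound site, and no binding was measured here.

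Heat shock genes followed the library that stood apart, whereas immediate early genes were furthest from DMSO in that library and partly higher in both. The 34 immediate early genes had a median of 0.47 (0.35 after median-of-ratios scaling). It was 0.08 in 5G6 replicate 1 and 0.93 in 5G6 replicate 2. Of them, 16 were higher in both 5G6 libraries and 8 at least 2-fold, against 22.6 and 1.32 percent of all genes. NR4A1, an orphan nuclear receptor induced within an hour of many stimuli, stood at 193 and 253 TPM with 5G6 and 63.3 and 16.6 TPM with DMSO (log2 fold change 2.72 ± 0.72 (SE), BH-adjusted p in limma = 0.706), with DMSO replicates that lay far apart. PHLDA1, a pleckstrin homology-like protein, stood at 129 and 138 TPM with 5G6 and 71.2 and 56 TPM with DMSO (1.07 ± 0.21 (SE), BH-adjusted p in limma = 0.267), and FOSL2, a FOS relative, at 69.7 and 105 TPM with 5G6 and 47.9 and 27.7 TPM with DMSO (1.21 ± 0.35 (SE)). Both were higher in each 5G6 library than in each DMSO library. DUSP1, a phosphatase of MAP kinases, stood at 135 and 368 TPM with 5G6 and 125 and 81.9 TPM with DMSO, and KLF6, a zinc finger transcription factor, at 21.7 and 108 TPM with 5G6 and 18.1 and 30.9 TPM with DMSO, and in both replicate 1 was near DMSO replicate 1. Heat shock chaperones had a median of 0.13 (-0.01), a direction that turned with the scaling, and -0.12 in 5G6 replicate 1 and 0.39 in 5G6 replicate 2. NF-kB genes lay above DMSO in both libraries, 0.24 in 5G6 replicate 1 and 0.54 in 5G6 replicate 2, with 15 of 22 members higher in both and a median of 0.35 (0.21). SOD2, the mitochondrial superoxide dismutase, stood at 392 and 383 TPM with 5G6 and 189 and 211 TPM with DMSO (0.95 ± 0.28 (SE)), with close replicates in each group. TNFAIP3, a feedback inhibitor of NF-kB, stood at 25.6 and 49.1 TPM with 5G6 and 22.4 and 18.4 TPM with DMSO.

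**Figure D4:**
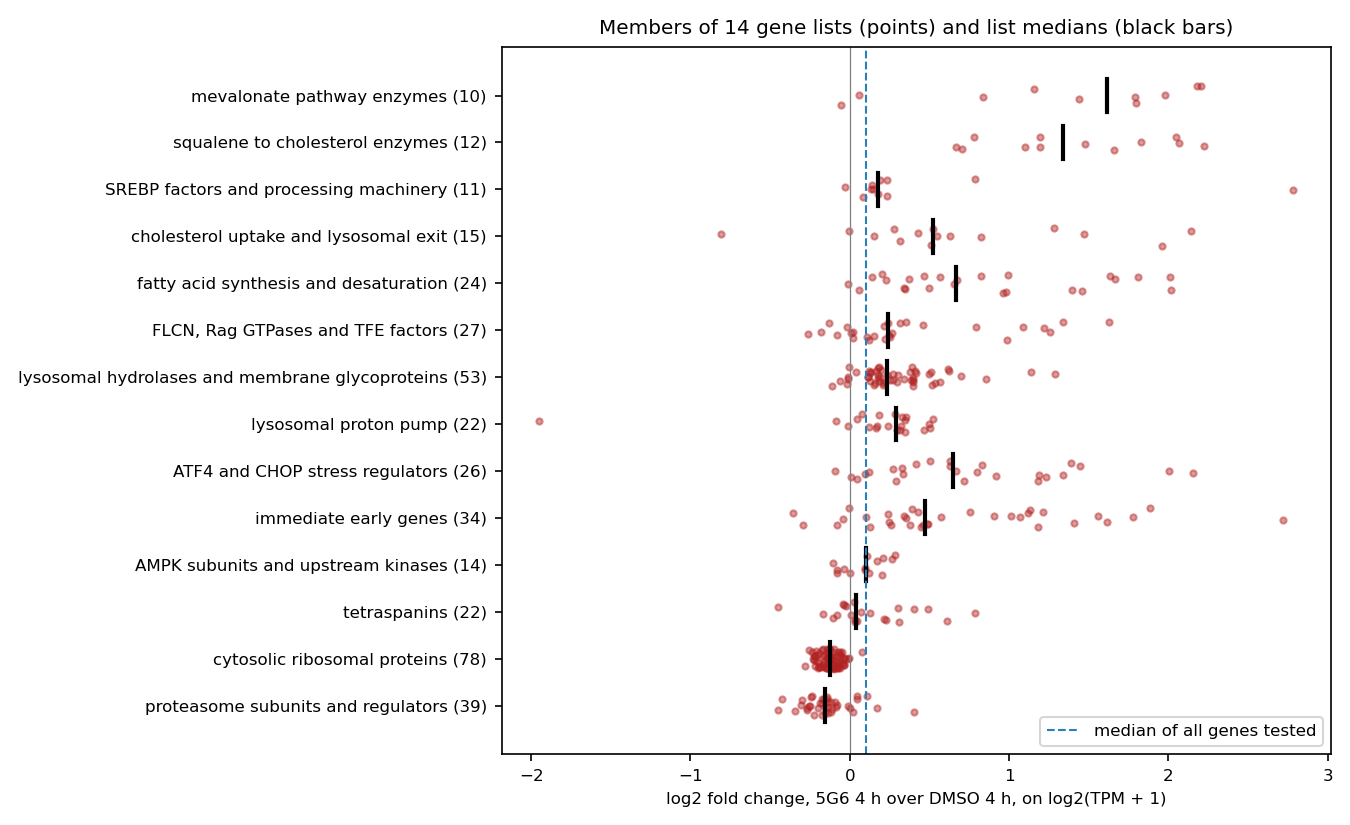
Log2 fold change of 5G6 over DMSO at 4 h on log2(TPM + 1) for the members of 14 gene lists (points, number of members in brackets), with black bars for list medians and a dashed line for the median of all genes, 0.11. Medians run from 1.61 for mevalonate enzymes to -0.16 for proteasome subunits, and the members of the AMPK list lie close to the dashed line.

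Of the genes that the series title points to, AMPK genes lay near DMSO at 4 h, and the exosome lists had low medians. The shares of tetraspanins higher and lower were close to those of all genes, whereas the RAB list had a larger share higher. The 14 AMPK subunits and upstream kinases had a median of 0.10 (-0.02 after median-of-ratios scaling), a direction that turned with the scaling, and for 0 of 14 did both 5G6 libraries lie above both DMSO libraries, or below both. PRKAA1, a catalytic subunit of AMPK, stood at 28.3 and 36.2 TPM with 5G6 and 34.8 and 34.1 TPM with DMSO (-0.10 ± 0.27 (SE)). Tetraspanins, the membrane proteins that include CD63, had a median of 0.04 (-0.08), which also turned with the scaling, with 6 of 22 higher and 2 lower, against 22.6 and 7.9 percent of all genes. CD63, which the cells overexpress as a fusion, stood at 2018 and 2346 TPM with 5G6 and 1697 and 1406 TPM with DMSO (0.49 ± 0.24 (SE), BH-adjusted p in limma = 1.00), and reads of the fusion transgene and of the endogenous gene cannot be told apart. The syntenin, syndecan and ESCRT list had a median of 0.09 (-0.04), also of either sign, and SDCBP, which encodes syntenin, stood at 213 and 216 TPM with 5G6 and 170.3 and 188 TPM with DMSO. RAB GTPases had a median of 0.16 (0.05) with 16 of 36 higher in both 5G6 libraries, a larger share than the 22.6 percent of all genes, and 2 lower. RAB27A and RAB27B, which dock secretory vesicles at the plasma membrane, stood at 9.39 and 9.69 TPM with 5G6 and 6.85 and 8.91 TPM with DMSO for RAB27A and 37.4 and 56.7 TPM with 5G6 and 25.9 and 31.3 TPM with DMSO for RAB27B (0.68 ± 0.30 (SE)). RAB7A, which marks late endosomes, stood at 192 and 236 TPM with 5G6 and 165 and 149.9 TPM with DMSO (0.44 ± 0.17 (SE)), and RAB5B, of early endosomes, at 52.3 and 55.1 TPM with 5G6 and 31.4 and 28.6 TPM with DMSO (0.82 ± 0.27 (SE)). The groups did not overlap in these 4, and none passed the adjusted threshold in limma.

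Genes on the lower side were fewer on the TPM scale, and fewer of them reached 2-fold. On that scale the median over all genes was 0.11, against -0.01 after median-of-ratios scaling, on which these counts were not taken. Ribosomal protein genes had 30 of 78 members lower in both 5G6 libraries, against 7.9 percent of all genes, and 0 higher; the median was -0.13 (-0.26 after median-of-ratios scaling), and -0.04 in 5G6 replicate 1 and -0.21 in 5G6 replicate 2. Proteasome genes had 18 of 39 lower and 1 higher, with a median of -0.16 (-0.29) and -0.14 in 5G6 replicate 1 and -0.14 in 5G6 replicate 2. Respiratory chain subunits had 15 of 72 lower and 0 higher, with a median of -0.13 (-0.26), but 0.03 in 5G6 replicate 1 and -0.28 in 5G6 replicate 2. Thus the proteasome group was below the DMSO mean to a like extent in both libraries, and the respiratory group in replicate 2. For the proteasome group, DMSO replicate 1 differed from DMSO replicate 2 by a median of -0.14, as large as that distance. PSMD4, a ubiquitin receptor of the proteasome, stood at 179 and 183 TPM with 5G6 and 209.6 and 252 TPM with DMSO (-0.34 ± 0.17 (SE)). DNA replication and mitotic genes had medians of -0.16 (-0.29) and -0.20 (-0.33), but the libraries disagreed: mitotic genes stood at -0.55 in 5G6 replicate 1 and 0.21 in 5G6 replicate 2. PCNA, the clamp of DNA polymerases, stood at 504 and 552 TPM with 5G6 and 636 and 712 TPM with DMSO (-0.35 ± 0.23 (SE)). Among single genes, SRSF7, a splicing factor, stood at 209.9 and 158 TPM with 5G6 and 349 and 303 TPM with DMSO (-0.83 ± 0.30 (SE)), and ANGPTL4, an inhibitor of lipoprotein lipase, at 14.1 and 14.3 TPM with 5G6 and 29.4 and 24.2 TPM with DMSO (-0.86 ± 0.88 (SE)). SIVA1, a gene linked to apoptosis, stood at 102 and 90.4 TPM with 5G6 and 212 and 181 TPM with DMSO (-1.02 ± 0.41 (SE)), but only -0.37 in mean coverage, and ALG14, of protein glycosylation, at 3.38 and 2.75 TPM with 5G6 and 10.1 and 15.1 TPM with DMSO (-1.72 ± 0.63 (SE)) but -0.17 in coverage. For ALG14 the TPM difference came with little difference in coverage, and for SIVA1 with a smaller one than in TPM. The share of each transcript form was not tested. CATSPERZ, known from the sperm calcium channel complex, was listed at 0 in both 5G6 libraries and at 6.38 and 4.7 TPM with DMSO, and TMEM140, a membrane protein, was listed at 0 in both DMSO libraries and at 29 and 13.5 TPM with 5G6. Both genes were also listed at 0 in some libraries of other treatments.

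Set against the other compounds at the same printed dose and time, 5G6 and 6D7 gave close values in ATF4 and Rag genes and 5G6 gave the higher values in sterol genes, though no difference from 6D7 passed the test. Limma called 0 of 15958 genes between 5G6 and 6D7 (BH-adjusted p below 0.05; 190 genes, 1.19 percent, at an unadjusted p below 0.05) and 1 gene, 0.00627 percent, between 5G6 and 7F8 (1601 genes, 10 percent, unadjusted). That gene was ELOVL6, at 42 and 36 TPM with 5G6 and 4.72 and 6.31 TPM with 7F8, a log2 difference of 2.62 (95% interval 1.99 to 3.26) and an adjusted p of 0.021 in limma with BH adjustment. With DMSO at 11.9 and 15.3 TPM, ELOVL6 lay above the solvent under 5G6 and below it under 7F8. The call was kept without 7F8 replicate 1 (adjusted p = 0.0375, limma with BH) and lost without 5G6 replicate 1 (0.192), 5G6 replicate 2 (0.137) or 7F8 replicate 2 (0.0516), with differences of 2.45 to 2.80. Without 7F8 replicate 1 the count between 5G6 and 7F8 was 33 genes, 28 of them higher with 5G6. INSIG1 stood at 296 and 241 TPM with 5G6, 197 and 97.7 TPM with 6D7 and 37.2 and 101 TPM with 7F8. Its log2 difference was 0.94 (95% interval -0.31 to 2.19) from 6D7 and 2.11 (95% interval 0.86 to 3.36) from 7F8. The median difference over the mevalonate list was 0.75 from 6D7 and 1.41 from 7F8, beside 0.10 and 0.22 over all genes. TRIB3 stood at 508 and 391 TPM with 5G6, 388 and 408 TPM with 6D7 and 129 and 39.8 TPM with 7F8, a difference of 0.16 (95% interval -0.74 to 1.06) from 6D7 and 2.62 (95% interval 1.72 to 3.52) from 7F8. RRAGD stood at 6.43 and 6.17 TPM with 5G6, 6.19 and 5.1 TPM with 6D7 and 1.84 and 2.35 TPM with 7F8, a difference of 0.14 (95% interval -0.40 to 0.69) from 6D7. These intervals from 6D7 include 0 and are wide, so equal action is not shown. SOD2 stood at 392 and 383 TPM with 5G6 and 815 and 886 TPM with 7F8, a difference of -1.13 (95% interval -1.75 to -0.52) with an adjusted p of 0.294 (limma, BH).

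The same genes were followed to 48 h, where the difference between the effect of 5G6 at 48 h and that at 4 h was tested as an interaction; limma called 0 of 15958 genes (1212 genes, 7.59 percent, at an unadjusted p below 0.05). INSIG1 stood at 538 and 430.2 TPM with 5G6 and 38.6 and 32 TPM with DMSO at 48 h, and the effect at 48 h minus that at 4 h was 0.95 (95% interval -0.81 to 2.72). NEU1 stood at 157 and 142 TPM with 5G6 and 26.6 and 27 TPM with DMSO at 48 h, an effect larger by 1.14 (95% interval 0.41 to 1.88) with an adjusted p of 0.46 (limma, BH). FLCN stood at 48.4 and 62.4 TPM with 5G6 and 28.2 and 33.4 TPM with DMSO at 48 h, and its interaction was -0.81 (95% interval -1.49 to -0.13), with the larger effect at 4 h. Neither interval includes 0, and neither gene passes the adjusted threshold. The 5G6 effect on NR4A1 was smaller at 48 h by the estimate, -2.15 (95% interval -4.36 to 0.06), with 66.2 and 99 TPM under 5G6 and 52.3 and 56 TPM under DMSO. Over lists, the median interaction was 0.77 for mevalonate enzymes, 0.36 for lysosomal hydrolases and glycoproteins, 0.02 for ATF4 and CHOP genes and -1.32 for mitotic genes, beside -0.19 over all genes.

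**Figure D5:**
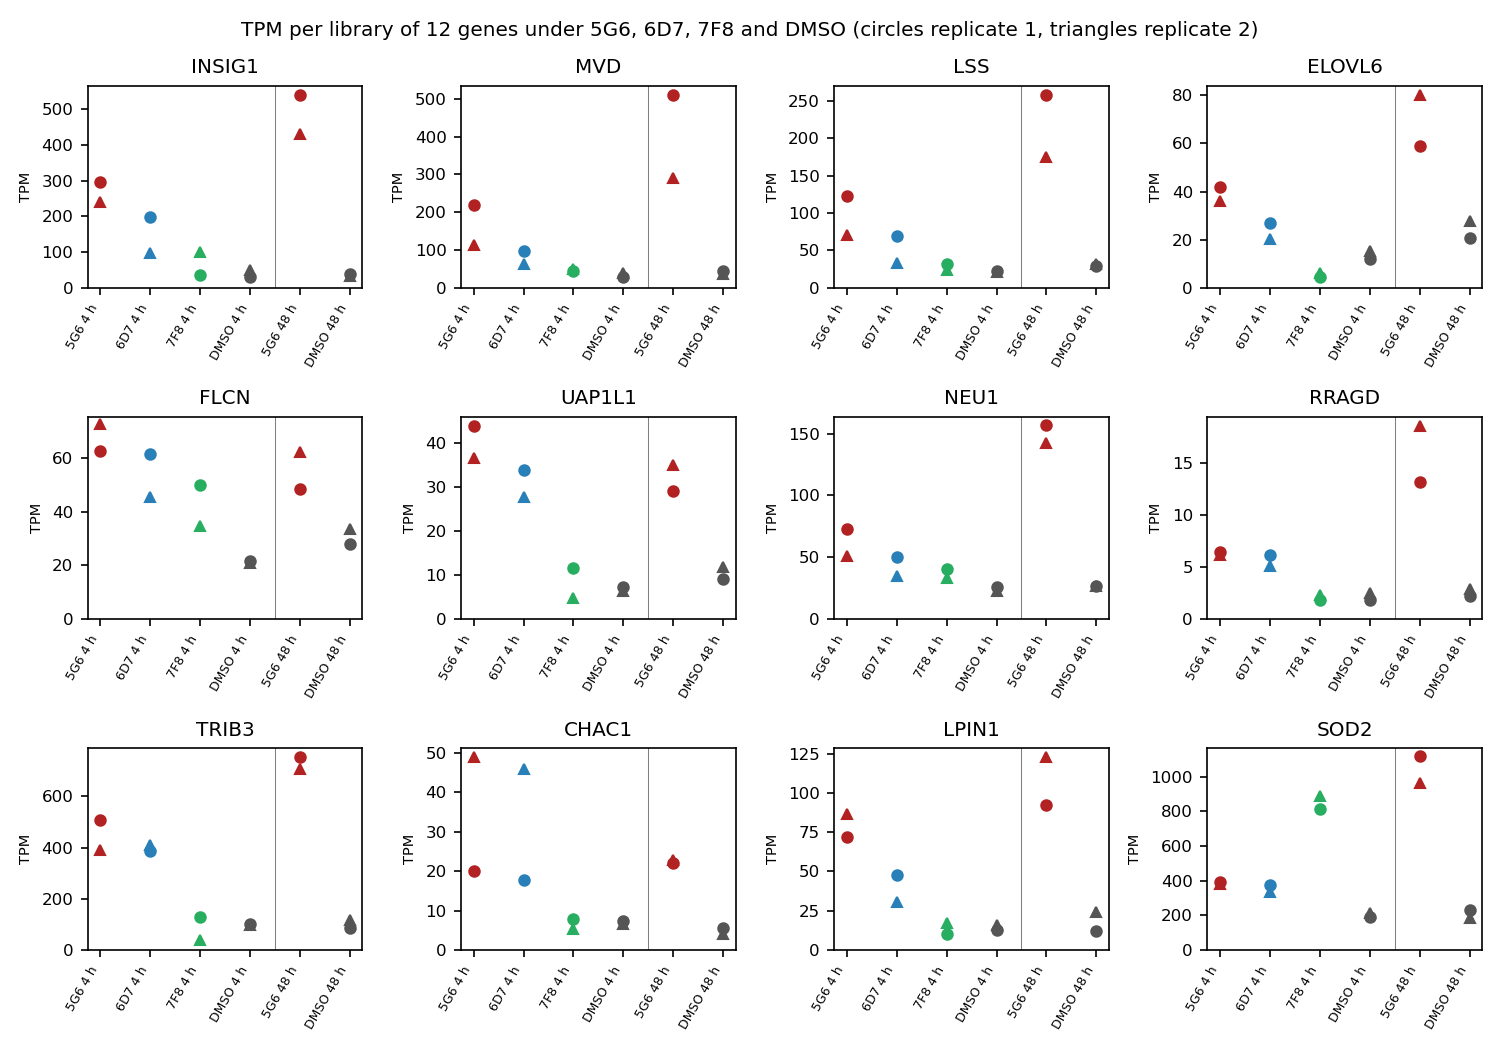
TPM per library of 12 genes with 5G6, 6D7, 7F8 and DMSO at 4 h and with 5G6 and DMSO at 48 h (circles replicate 1, triangles replicate 2). At 4 h TRIB3 and RRAGD with 5G6 and 6D7 lie together above 7F8 and DMSO, ELOVL6 is lowest with 7F8, and SOD2 is highest with 7F8 (815 and 886 TPM).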

How the data were processed

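Each library had 1 gene abundance table with TPM, FPKM and coverage columns. TPM and FPKM values were made by the authors before deposit, per the file headers in the layout of StringTie, and coverage, the mean read coverage of a gene, is a signal that the deposited tables give unscaled. Per the submitters' processing notes, STAR 2.6.1a, featureCounts 1.6.3 and StringTie 2.0 were used with GRCh38, with no role or order given. Strandedness is not given in the sources used here. No read counts were used, so counting intervals and floors were not computed. Depth is given as gigabases, taken as the largest ratio of coverage to FPKM over nuclear lines with FPKM above 1. In DMSO replicate 1 at 4 h, 9527 of 12315 such lines lay off that ratio, so the depth is an estimate.

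TPM was summed by gene name, mitochondrial genes were dropped and the rest rescaled to the same sum. A gene was tested if at least 2 of the 16 libraries had 1 TPM or more (15958 of 26156 genes above 0). The model was limma 3.58.1 (R 4.3.3) on log2(TPM + 1), with 8 group means, a mean-variance trend and 8 residual degrees of freedom, so the 4 h groups share the spread of all groups. A pseudocount of 1 understates the fold of weakly expressed genes. Tests were two-sided, with Benjamini-Hochberg adjustment over all genes tested in a comparison. The procedure was tested on simulated data for 5G6 against DMSO at 4 h. It called 26 of 100 genes changed 2-fold and 80 of 100 changed 4-fold, and 4 of its 110 calls were unchanged genes. A count of 0 calls therefore does not show that no gene changed. Software for tables was Python 3.11.15 with numpy 2.4.6 and pandas 2.3.3, and for figures matplotlib 3.10.9.

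Genes were named if called, if among the 15 largest differences each way (higher group averaging 5 TPM or more, groups apart, no clone, LOC, LINC, MIR, antisense or readthrough names), if among the 3 smallest p of a list, or if in a fixed set; other genes were chosen after their values were seen. The members and lists were chosen with earlier results of these data known. Some genes that the rule takes are not reported here. Promoter sequences came from RefSeq (GRCh38.p14). Alternatives were chrM kept, median-of-ratios scaling (size factors 0.849 to 1.18), FPKM, a pseudocount of 0.1, other filters, no trend, fewer libraries, a replicate block and leaving out each library. Coverage in place of TPM, the block with scaling, and leaving out libraries of 6D7, 7F8 or 48 h were added after seeing the data.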

Additional observations from a re-analysis of the deposited data

How the results depend on the processing

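The count of genes called for 5G6 against DMSO at 4 h depended on the scaling. It was 0 as reported, 3 with chrM kept in TPM (FLCN, PIP4P1 and UAP1L1), 2 with median-of-ratios scaling or FPKM (FLCN and UAP1L1), 1 with coverage in place of TPM (FLCN) and 17 with no filter; the cause was not tested. Leaving out 1 library gave 0 to 1. Against 6D7 the count of 0 became 3 with a pseudocount of 0.1, 14 with no filter, 1 with the 8 libraries of 4 h alone, and 0 to 1 with 1 library left out. Against 7F8 the count of 1 became 2 with chrM kept, 3 with a pseudocount of 0.1, 19 with no filter, 0 with the 8 libraries of 4 h or with coverage, and 1 to 33 with 1 library left out. For the interaction, 0 became 18 with no filter and 0 to 2 with 1 library left out. Over 66 named values and up to 18 settings, 1033 of 1054 recomputed values kept their direction and their side of the threshold. Signs turned with 1 library left out for HSPA6 (-0.15 without 5G6 replicate 2, up to 7.38 without 5G6 replicate 1), PRKAA1 (-0.28 to 0.0698, positive without 5G6 replicate 1) and TFEB (-0.46 to 0.10, positive without DMSO replicate 1). List medians, which have no test, moved by more than the spread between libraries in 69 of 672 recomputed values.

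The labels do not say that replicate numbers pair the samples, so these share only a number. Deviations of same-numbered libraries correlated at 0.4 between 5G6 and DMSO at 4 h and at 0.054 to 0.588 over the 28 pairs of groups, and at 0.355 or more between 4 h groups, a hint from the data that the numbers mark a shared difference at 4 h. With a replicate block, limma called 0 genes for 5G6 against DMSO (770 at an unadjusted p below 0.05), 0 against 6D7, 1 against 7F8 and 0 for the interaction. The block with median-of-ratios scaling gave 2 genes against DMSO (FLCN and UAP1L1), 0 against 6D7, 0 against 7F8 and 0 for the interaction. The tables hold no counts, so the depth behind a single value is unknown.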

Other observations

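Hypoxia and inflammatory genes had medians above that of all genes tested (0.11, and -0.01 after median-of-ratios scaling), and glycolytic genes a median close to it, with no single member past the adjusted threshold in limma. Glycolysis and transport genes had a median log2 fold change of 0.16 (0.02 after median-of-ratios scaling), with 10 of 27 members higher in both 5G6 libraries than in both DMSO libraries, against 22.6 percent of all genes (7.9 percent lower). PFKFB2, which sets the level of the glycolytic activator fructose 2,6-bisphosphate, stood at 23.1 and 14.5 TPM with 5G6 and 7.72 and 5.75 TPM with DMSO (1.33 ± 0.36 (SE)). ALDOC, a glycolytic aldolase, stood at 37.7 and 13.3 TPM with 5G6 and 6.67 and 9.74 TPM with DMSO (1.37 ± 0.57 (SE)), and the 5G6 replicates differed widely. Hypoxia genes other than glycolytic ones had a median of 0.34 (0.21), with 13 of 26 higher and 2 lower. Inflammatory chemokines and cytokines had a median of 0.34 (0.21) with 9 of 23 higher, and CXCL5, a chemokine for neutrophils, stood at 627 and 713 TPM with 5G6 and 523 and 530.2 TPM with DMSO (0.34 ± 0.20 (SE)). p53 targets had a median of 0.19 (0.07), and CDKN1A, the cell cycle inhibitor p21, stood at 227 and 166 TPM with 5G6 and 198 and 149 TPM with DMSO, overlapping but higher with 5G6 at each replicate number. YAP and TEAD targets had a median of 0.19 (0.05), with -0.08 in 5G6 replicate 1 and 0.42 in 5G6 replicate 2, so the sign differed between the libraries. NRF2 targets had a median of -0.04 (-0.17), and HMOX1, which degrades heme, stood at 665 and 421 TPM with 5G6 and 459 and 312 TPM with DMSO, overlapping but higher with 5G6 at each replicate number.

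CEBPB-AS1 had the largest log2 fold change of all genes tested, 4.84, at 63.7 and 66.5 TPM with 5G6 and 1.52 and 1.11 TPM with DMSO; it falls outside the naming rule, which leaves out antisense names, and was chosen after its values were seen. It overlaps CEBPB on the opposite strand of chromosome 20, and without stated strandedness the reads of both cannot be told apart. CEBPB stood at 214 and 238 TPM with 5G6 and 231 and 218 TPM with DMSO, with overlapping groups. The limma BH-adjusted p of CEBPB-AS1 was 0.969.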
